A study of Mus musculus with 6 samples.

Results

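The genes of DNA replication and S phase examined here were 46 of the 54532 genes in the deposited table and were chosen by name as a functional class, with earlier results of these data known. They cover the machinery from origin recognition to the joining of Okazaki fragments, enzymes that supply deoxynucleotides, and both E-type cyclins. All 46 passed the filter on low values used for testing (at least 1 TPM in at least 3 of the 6 libraries). TPM is a transcript abundance per gene length with the same total in every library.

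RNA came from fetal livers of CD-1 mice with the genotype Sm22-Cre/ROSA26RYFP, from which eYFP-positive cells had been taken with a cell sorter. Cre driven by the Sm22 (Tagln) promoter switches the eYFP reporter on for good, so a sorted cell has used this promoter itself or descends from one that did. By the labels the groups differed in age alone: embryonic day 16 (E16) and embryonic day 18 (E18). Each day had 3 libraries, lettered A, B and C. Strain, genotype and sort were the same, and there was no treatment and no Cre-negative group. Whether libraries of a day come from separate animals, litters or pools is not stated in the labels, so p-values measure only how these libraries vary, which may be technical.

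Before S phase, the origin recognition complex (ORC), Cdc6 and Cdt1 load the ring-shaped MCM helicase onto DNA. Cdc45 and the GINS complex then join MCM to form the active helicase, after which primase and the replicative polymerases copy the strands with the sliding clamp PCNA. Many of these genes are transcribed around the G1/S boundary under E2F factors, and their RNA is a common sign of dividing cells. The fetal liver is a main site of red cell production before birth, and its erythroid precursors divide often.

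The libraries held RNA of mesenchyme and of other cell types. The mesenchymal list (Col1a1, Col1a2, Col3a1 and 9 more) summed to 436 to 822 TPM at E16 and 2370.1 to 6087 TPM at E18, and 12 of 12 genes passed the test as higher at E18. Smooth muscle markers summed to 27.1 to 73.0 TPM and 240.3 to 491 TPM (8 of 8 above 0). Among them Tagln, whose promoter drove Cre, stood at 0.606 to 1.40 TPM and 2.86 to 3.37 TPM. Opposite-strand exons cover 67.9% of the exons of Tagln, so its level is uncertain. Erythroid markers (20 of 20 matched genes above 0; Hba-a1, Hba-a2 and Hbb-bs among them) summed to 8710.1 to 10546 TPM and 14384 to 23284 TPM, and 2 of 20 passed the test, both higher. Of these 20, 13 had every E18 value above every E16 value, Epor had every one below, and 6, among them Klf1 and Gata1, overlapped. Hepatocyte markers (18 of 18 above 0; Alb, Afp and Ttr among them) summed to 2435 to 9878 TPM and 418 to 1079 TPM, and 9 of 18 passed the test, each lower. Megakaryocyte markers (8 of 8 above 0) summed to 34.7 to 149 TPM over all libraries. Mesothelial markers (6 of 6 above 0) summed to 21.8 to 22.6 TPM at E16 and 74.9 to 130.1 TPM at E18, and 4 of 6 passed the test, each higher. Endothelial markers summed to 27.5 to 41.0 TPM at E16 and 18.0 to 25.1 TPM at E18, mostly from Egfl7, with Cdh5 and Emcn listed at 0 in every E16 library. The other endothelial markers did not pass the filter on low values. Each of them had a higher mean at E18 than at E16, at most 2.01 TPM (Tek). Leukocyte and macrophage markers summed to 41.0 to 114 TPM over all libraries, mostly from Cd68, with Adgre1 and Cd14 listed at 0 in all 6 libraries. In such bulk samples fewer cells of a type and less RNA per cell cannot be told apart. The part of each cell type in the values of the replication genes was not tested.

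Replication genes were abundant on both days, with single values from 7.83 to 619.6 TPM, and their levels at E16 and E18 lay close together. The 46 genes summed to 5282, 6946 and 6372 TPM at E16 and to 6819, 6337 and 6527 TPM at E18 (replicates A, B and C, an order kept throughout), so the days overlap. In the limma fit on log2(TPM + 1), 0 of 46 passed at a Benjamini-Hochberg adjusted p under 0.05, beside 3.47% of all genes tested (618 of 17824), and the smallest limma adjusted p was 0.156 (Orc5). At an unadjusted p under 0.05 there were 6 of 46 (13.0%), beside 20.9% of all genes tested. With voom, limma's method for counts, on read numbers recovered from the TPM values, 0 of 46 passed, beside 8.11% of all genes tested, and 3 had an unadjusted p under 0.05, beside 21.3%. With array weights, which give a noisier library less influence, 7 of 46 passed (15.2%), beside 24.2% of all genes tested.

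In the main fit the size of any change was bounded for each gene. Log2 fold changes of E18 against E16 ran from −0.39 (Orc5) to 0.49 (Rrm2) on the log2(TPM + 1) scale. The limma 95% interval lay within 1 log2 unit of 0, a 2-fold change either way, for 46 of 46 genes, beside 45.5% of all genes tested. For 23 of the 46 it lay within 0.5 log2 units. With a minimum of 5 TPM in at least 3 libraries it lay within 1 log2 unit for 46 of 46, beside 61.1% of genes then tested. With the erythroid or the hepatocyte score (each library's mean log2(TPM + 1) over those markers) as a covariate it lay within 1 log2 unit for 13 and 19 of the 46, beside 4.35% and 7.50% of all genes tested. The median log2 fold change was 0.067 over the 46 and 0.075 over all genes tested. The median residual SD among libraries of a day was 0.16 log2 units over the 46 and 0.35 over all genes tested. The part of expression level in this spread and in the interval shares was not tested. Of the 46 values 32 were positive and 14 negative. This split moved with the scaling: it was 23 and 23 with Gm26917, mitochondrial and small RNAs taken out of the total, and 18 and 28 under median-of-ratios scaling.

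**Figure D1:**
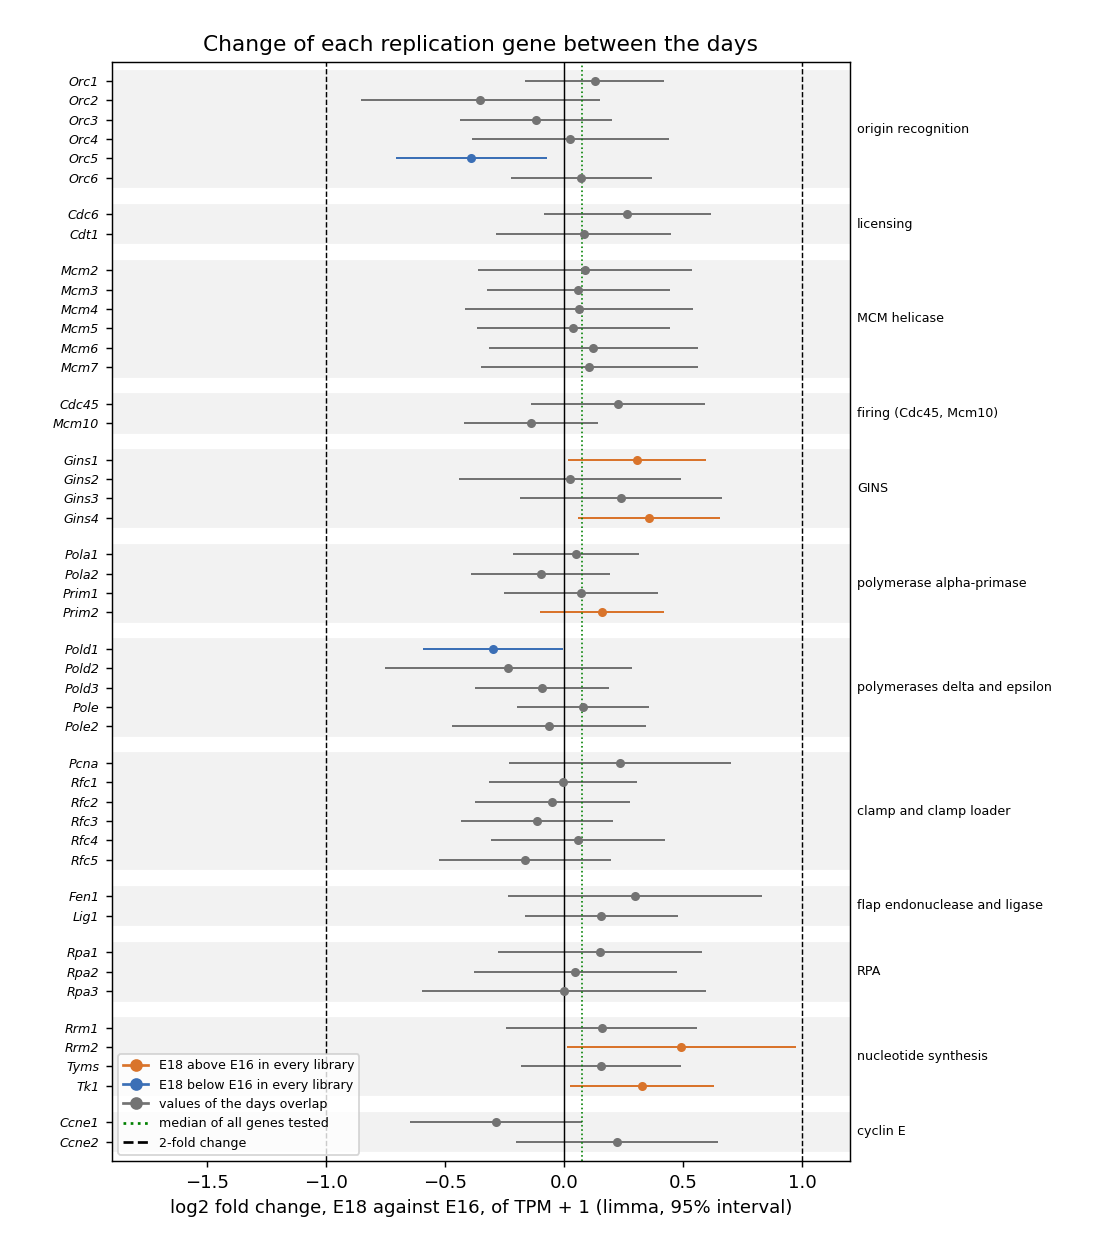
Log2 fold change of TPM + 1 at E18 against E16 (x axis) for each of the 46 genes, grouped by complex (y axis), with bars for the limma 95% interval (3 libraries a day). All 46 bars lie between the dashed lines of a 2-fold change. Orange marks the 5 genes with every E18 library above every E16 library, blue the 2 with every E18 library below. Of all genes tested 18.4% and 8.05% stood apart in this way.

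The order of the libraries was uneven. On the deposited scale E16 replicate A was the lowest of the 6 libraries for 23 of the 46 genes, and E16 replicate B was the highest for 19. In E16 replicate A the gene Gm26917 took 33.9% of all TPM, against 19.8% in E16 replicate B and 22.6% to 26.0% in the other libraries. With Gm26917 taken out of the total, E16 replicate A was lowest for 12 of the 46 and highest for 9. On that scale the 46 genes summed to 7992.5, 8661 and 8498 at E16 and to 9121, 8561 and 8432 at E18.

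The 6 ORC subunits, which mark origins, differed widely in level. Their means ran from 13.4 TPM (Orc4) to 85.9 TPM (Orc2). Orc5 (ENSMUSG00000029012; chromosome 5, 22486485 to 22550429, mm10, as for all positions here) was at 43.6, 42.0 and 39.5 TPM at E16 and at 31.6, 28.5 and 34.9 TPM at E18. Every E18 value lay below every E16 value, and the log2 fold change was −0.39 ± 0.13 (SE; 95% interval −0.71 to −0.073; limma adjusted p = 0.156). Orc1, the subunit known to cycle in level, was at 38.8, 40.5 and 45.9 TPM and at 46.4, 44.5 and 45.8 TPM, and Orc6 was at 65.4 to 76.8 TPM and 69.1 to 79.8 TPM. Both overlap between the days. The ratio of Orc5 to Orc6, which does not depend on how a library is scaled, was 0.667, 0.570 and 0.514 at E16 and 0.405, 0.357 and 0.505 at E18, so the days do not overlap. This ratio, like the others below, was chosen after the values were seen and was not tested. Orc2 was at 81.6, 110.1 and 95.6 TPM and at 73.8, 57.2 and 96.9 TPM, the widest of the 6, and exons of Nif3l1 on the other strand cover 29.8% of its exons. Orc3 was at 39.0 to 48.3 TPM and 38.7 to 43.2 TPM and Orc4 at 11.8 to 14.1 TPM and 12.6 to 14.2 TPM, each with overlap.

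The loading factors Cdc6 and Cdt1 bring MCM to ORC. Cdc6 was at 119.9, 163 and 141 TPM at E16 and at 183, 167 and 157 TPM at E18 (0.27 ± 0.15, log2 ± SE; limma adjusted p = 0.380). Cdt1 was at 281 ± 45.0 and 295 ± 5.43 TPM on the 2 days (SD, n = 3). Both genes overlap between the days on the deposited scale. Without Gm26917 in the total, Cdc6 was higher at E18 without overlap.

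Of the 46 genes Mcm5, Mcm7 and Mcm3 of the MCM helicase ranked 1, 2 and 3 by mean TPM. Mcm2 to Mcm7 encode the 6 subunits of the ring, each present once. Their means over the 6 libraries ran from 271 TPM (Mcm4) to 565 TPM (Mcm5), a 2.08-fold range. Mcm5 (ENSMUSG00000005410; chromosome 8, 75109569 to 75128439) was at 483, 611 and 580.3 TPM at E16 and at 619.6, 507 and 590.2 TPM at E18. The log2 fold change was 0.039 ± 0.17 (SE; 95% interval −0.37 to 0.44; limma adjusted p = 0.933), and the days overlap. Mcm4 was at 193, 314 and 298 TPM and at 266, 269 and 287 TPM, low in E16 replicate A alone. Mcm2 was at 213 to 339 TPM and 259.8 to 306 TPM (E16 and E18), and its values overlap too. Mcm3 was at 376 to 496 TPM and 456 to 479 TPM, Mcm6 at 268 to 408 TPM and 324 to 379.7 TPM and Mcm7 at 368 to 539 TPM and 443 to 533 TPM, all with overlap. The 6 MCM log2 fold changes lay between 0.039 and 0.12, each smaller than its SE of 0.16 to 0.20. The 6 genes lie on 5 chromosomes, with Mcm3 and Mcm6 both on chromosome 1.

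Promoter sequence was read because E2F sites are a known shared feature of this gene class. RefSeq promoters (GRCm38.p6) were matched for 38 of the 46 genes. The 250 bases before each gene start were searched on both strands for 4 E2F words, TTTCCCGC, TTTGGCGC, TTTGCCGC and TTTCGCGC, matches of which can overlap. At least 1 word was found in 9 of 38 promoters (23.7%), beside 3.49% of 10294 promoters of genes tested and 2.18% of all 20611. The 9 genes were Orc1, Orc3, Cdc6, Mcm5, Mcm6, Mcm7, Gins3, Pola1 and Rfc3. Their 12 matches lay at positions −165 to −10 from the RefSeq start. For Cdc6 and Mcm7 the bases searched lie inside the gene positions used here, and for Orc1, Gins3 and Rfc3 they do so in part. The letters CCAAT, read by the factor NF-Y, were found in 22 of 38 (57.9%), beside 36.3% of promoters of genes tested and 35.2% of all. The letters TTTGAA, the core of the CHR element of late cell cycle genes, were found in 4 of 38 (10.5%), beside 10.8% and 15.2%. Mcm5, Mcm6 and Pola1 are printed, 5′ to 3′ along the gene, because their windows hold E2F words and no annotated exon; capitals mark the words.
Mcm5, chr8:75109268-75109387, plus strand: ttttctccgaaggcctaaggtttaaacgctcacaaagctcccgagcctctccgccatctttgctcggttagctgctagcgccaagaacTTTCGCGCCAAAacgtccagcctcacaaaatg
Mcm6, chr1:128359725-128359844, minus strand: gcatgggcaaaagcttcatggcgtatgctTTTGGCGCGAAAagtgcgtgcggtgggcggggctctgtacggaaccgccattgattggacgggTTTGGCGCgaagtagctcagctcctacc
Pola1, chrX:93632266-93632385, minus strand: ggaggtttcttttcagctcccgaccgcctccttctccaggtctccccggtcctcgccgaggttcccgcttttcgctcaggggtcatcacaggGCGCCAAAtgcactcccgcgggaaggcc
In Mcm5 words on opposite strands start at −153 and −149 and overlap, and in Mcm6 they do so at −110 and −106. Mcm6 has another word at −47, and Pola1 has its word at −138. A match of letters is a description and not a shown binding site, and a promoter without one only lacks these letters in this window.

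Of the factors that activate the helicase, 2 of 4 GINS genes had days that did not overlap, beside 26.5% of all genes tested. Gins4 (Sld5; chromosome 8, 23226616 to 23237659) was at 83.4, 104 and 89.3 TPM at E16 and at 121, 119 and 113 TPM at E18. The log2 fold change was 0.36 ± 0.13 (SE; 95% interval 0.060 to 0.65; limma adjusted p = 0.164). Gins1 (Psf1) was at 48.4, 47.9 and 56.3 TPM and at 60.7, 63.2 and 65.1 TPM, all higher at E18 (0.31 ± 0.12; limma adjusted p = 0.214). The summed GINS level was 185 ± 13.96 TPM at E16 and 227 ± 3.91 TPM at E18 (SD, n = 3). Gins3 (Psf3) was at 14.1 ± 1.40 and 16.8 ± 2.20 TPM and Gins2 (Psf2) at 28.2 ± 3.55 and 29.0 ± 6.73 TPM, both with overlap. The 4 subunits form the complex in equal number, and the mean of Gins4 was 6.80 times that of Gins3. Exons of Gse1 on the other strand cover 67.3% of the exons of Gins2, so its level is uncertain. Cdc45, the third part of the active helicase, was at 78.7 to 86.2 TPM and 79.7 to 112 TPM, and the firing factor Mcm10 at 77.8 to 86.8 TPM and 68.5 to 78.5 TPM, each with overlap.

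DNA polymerase alpha-primase lays down the RNA-DNA primers. Its subunit Pola2 was at 232 ± 19.6 and 216 ± 5.28 TPM and the catalytic Pola1 at 50.5 ± 1.54 and 52.3 ± 2.13 TPM (SD, n = 3). Of the primase pair, Prim2 was at 59.6, 59.3 and 62.8 TPM at E16 and at 65.5, 71.0 and 67.0 TPM at E18, without overlap on the deposited scale (limma adjusted p = 0.483). With Gm26917 taken out of the total its days overlapped. Prim1 was at 60.0 to 71.3 TPM and 63.4 to 78.9 TPM, with overlap.

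Polymerase delta mainly makes the lagging strand and polymerase epsilon the leading strand. Pold1 (chromosome 7, 44532746 to 44548849), the catalytic subunit of delta, was at 106, 104 and 114 TPM at E16 and at 87.4, 78.9 and 97.4 TPM at E18. Its days do not overlap, and the log2 fold change was −0.30 ± 0.13 (SE; limma adjusted p = 0.235). The catalytic subunit of epsilon, Pole, was at 86.5, 75.8 and 83.6 TPM and at 85.3, 92.1 and 82.3 TPM, with overlap. The ratio of Pold1 to Pole was 1.22, 1.38 and 1.36 at E16 and 1.02, 0.856 and 1.18 at E18, lower in each E18 library than in any E16 library. The accessory subunits Pold2, Pold3 and Pole2 ranged over 77.4 to 141 TPM, 90.8 to 109.9 TPM and 26.7 to 38.8 TPM in the 6 libraries. Their days overlap on the deposited scale, but Pold3 was lower at E18 without overlap once Gm26917 was out of the total.

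The sliding clamp lay far above its loader. Pcna was at 255, 395 and 303 TPM at E16 and at 406, 383 and 321 TPM at E18 (0.24 ± 0.20, log2 ± SE; limma adjusted p = 0.576), lowest in E16 replicate A and overlapping between the days. The 5 genes of replication factor C, which opens and closes the clamp, had means from 31.3 TPM (Rfc3) to 82.1 TPM (Rfc4). Rfc1, the large subunit, was at 60.3 ± 6.76 and 60.0 ± 3.33 TPM (SD, n = 3), and Rfc4 at 80.9 ± 15.2 and 83.4 ± 4.32 TPM. The small subunits Rfc2, Rfc3 and Rfc5 were at 32.5 ± 2.62 and 31.4 ± 2.54 TPM, 32.6 ± 3.35 and 30.0 ± 0.954 TPM and 40.04 ± 6.24 and 35.4 ± 2.55 TPM. All 5 overlap between the days on the deposited scale, and log2 fold changes ran from −0.17 (Rfc5) to 0.058 (Rfc4). Without Gm26917 in the total, Rfc3 and Rfc5 were lower at E18 without overlap. Opposite-strand exons cover 15.1% of Rfc2, 12.7% of Rfc4 and 10.7% of Rfc5.

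Okazaki fragments are finished by the flap endonuclease Fen1 and DNA ligase I (Lig1). Lig1 was at 222, 213 and 259 TPM at E16 and at 271, 266 and 236 TPM at E18, with overlap. Fen1, the lowest of the 46 genes, was at 7.92, 7.83 and 11.6 TPM and at 10.6, 12.2 and 11.1 TPM, on at least 113 recovered reads a library. Exons of the antisense gene Gm10143 cover 78.8% of the exons of Fen1 and those of Tmem258 another 5.37%. How the authors' counting treated strand and overlapping genes is not stated, so the level of Fen1 is uncertain and is not set against that of Lig1. The single-strand binding protein RPA is a trimer, and its genes Rpa1, Rpa2 and Rpa3 were at 65.5 ± 13.7 and 72.2 ± 8.65 TPM, 100.1 ± 22.8 and 102 ± 2.58 TPM and 27.1 ± 8.90 and 26.6 ± 5.52 TPM (SD, n = 3). Rpa3 had the widest residual spread of the 46 genes, 0.36 log2 units, and at least 118 recovered reads a library.

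**Figure D2:**
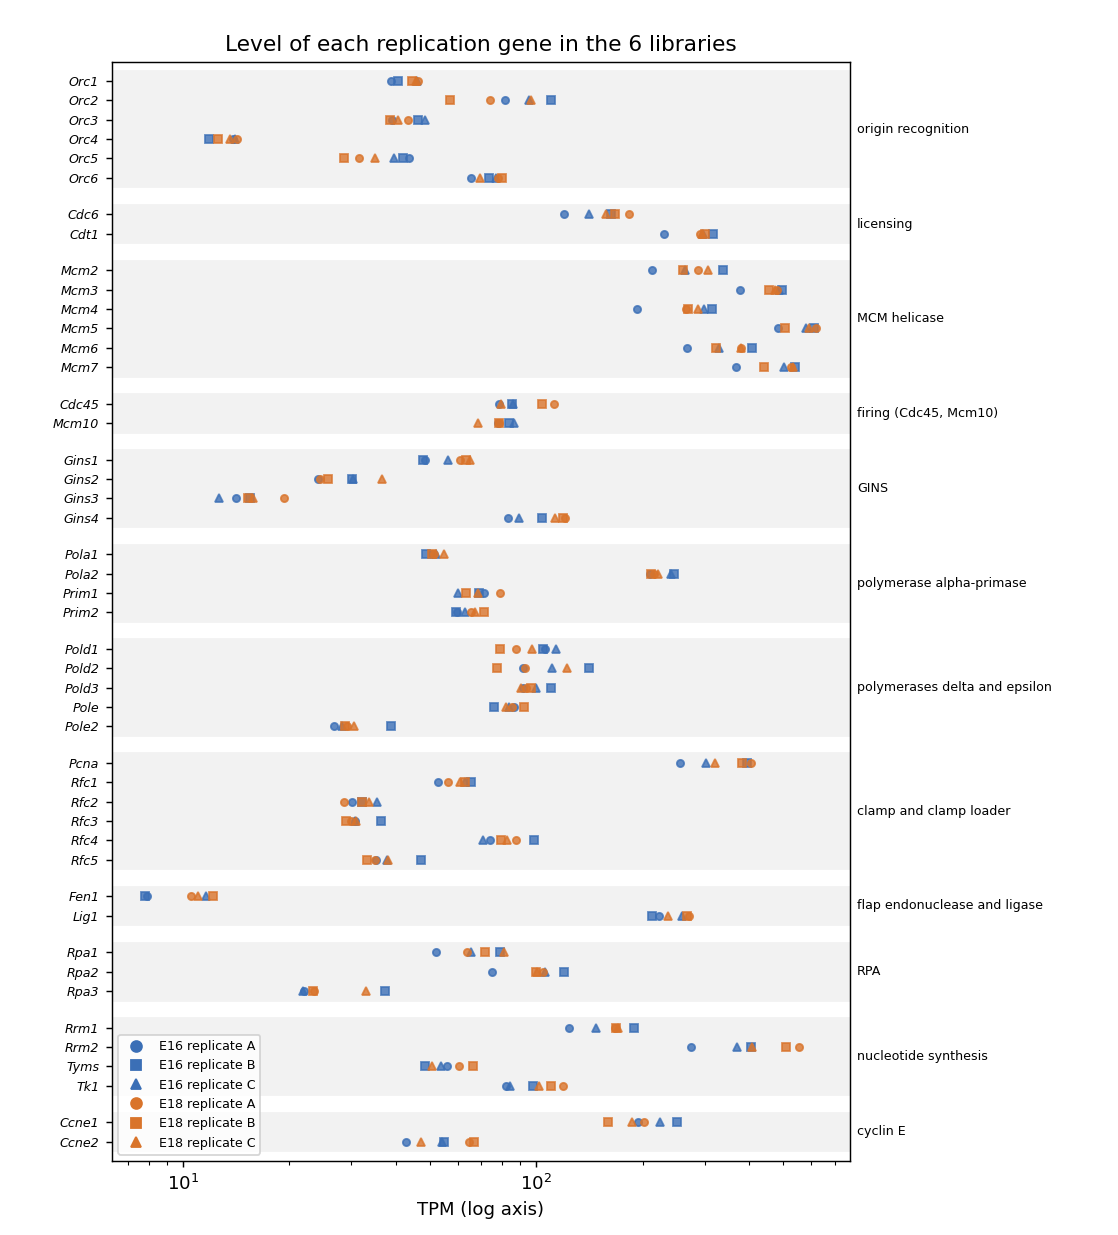
TPM on a log axis (x) of each of the 46 genes (y, grouped by complex), with 1 point for each library (blue E16, orange E18; shapes for replicates A, B and C). MCM genes, Pcna and Rrm2 lie among the highest and Fen1, Orc4 and Gins3 lowest, and the days overlap for 39 of the 46 genes. Of all genes tested 26.5% have days that do not overlap.

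Among enzymes of deoxynucleotide supply, Rrm2 had the highest log2 fold change of the 46 genes. Rrm2 (ENSMUSG00000020649; chromosome 12, 24708241 to 24714146) encodes the S-phase subunit of ribonucleotide reductase, which makes deoxynucleotides. It was at 274, 405 and 371 TPM at E16 and at 553, 511 and 408 TPM at E18. The lowest E18 value, in replicate C, lay just above the highest E16 value, and the log2 fold change was 0.49 ± 0.20 (SE; 95% interval 0.011 to 0.98; limma adjusted p = 0.229). Rrm1, the large subunit, was at 153 ± 33.2 and 169 ± 2.06 TPM (SD, n = 3). The ratio of Rrm2 to Rrm1 was 2.22, 2.14 and 2.52 at E16 and 3.31, 3.04 and 2.38 at E18, so E18 replicate C lies among the E16 libraries. That library also had the lowest erythroid sum at E18, 14384 TPM, whose part was not tested. Tk1 (chromosome 11, 117815526 to 117826092), the thymidine kinase of S phase, was at 82.1, 98.1 and 84.0 TPM and at 119, 110.3 and 102 TPM without overlap (0.33 ± 0.13; limma adjusted p = 0.207). Thymidylate synthase, Tyms, was at 52.7 ± 3.75 and 59.1 ± 7.75 TPM, with overlap.

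The E-type cyclins, which activate Cdk2 at the G1/S boundary, had values of opposite sign. Ccne1 was at 194, 251 and 225 TPM at E16 and at 202, 159.5 and 186 TPM at E18 (−0.29 ± 0.15, log2 ± SE; limma adjusted p = 0.356). Ccne2 was at 42.7, 54.7 and 54.0 TPM and at 64.4, 66.5 and 47.2 TPM (0.22 ± 0.18; limma adjusted p = 0.558). Each gene overlaps between the days on the deposited scale. Once Gm26917 was out of the total, Ccne1 was lower at E18 without overlap. The ratio of Ccne1 to Ccne2 was 4.55, 4.59 and 4.16 at E16 and 3.14, 2.40 and 3.94 at E18, without overlap. Exons of Ints8 on the other strand cover 17.4% of those of Ccne2.

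Over the whole machinery, 7 of the 46 genes (15.2%) had days that did not overlap, beside 26.5% of all genes tested. Every E18 value was higher for 5 of them (Gins1, Gins4, Prim2, Rrm2 and Tk1), beside 18.4% of all genes tested, and lower for 2 (Orc5 and Pold1), beside 8.05%. With Gm26917 taken out of the total 12 of the 46 (26.1%) did not overlap, beside 27.7% of all genes tested. Of these 5 were higher, beside 17.0%, and 7 lower, beside 10.7%. Among them Cdc6 (higher) and Pola2, Pold3, Rfc3, Rfc5 and Ccne1 (lower) had overlapped on the deposited scale. Gins1, Gins4, Rrm2, Tk1, Orc5 and Pold1, 6 of the 46, stood apart on both scales in the same direction. With the erythroid score as a covariate in limma, the log2 fold changes of Gins1, Gins4, Prim2, Rrm2 and Tk1 were 0.46, 0.089, 0.18, −0.28 and −0.061, and those of Orc5 and Pold1 −0.15 and −0.012. All 7 of their 95% intervals included 0, with SEs of 0.30 to 0.44. The erythroid sums do not overlap between the days, so this fit separates day from score poorly. In it 0 of all 17824 genes tested passed.

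The order of levels between genes depended on the length used. TPM here follows the merged length of all exons of a gene, which includes rare isoforms. When levels were expressed per length of the principal transcript instead, 12 of the 46 genes moved by more than 5 ranks. All reads of a gene were kept for this, also those outside the principal transcript, so such a level can be too high. Pola2 went from rank 11 at 224 TPM to rank 1 at 767, and Tk1 from rank 18 at 99.3 TPM to rank 11 at 359. Mcm7 was at rank 2 and Fen1 at rank 46 with either length. A gene's ratio between the days does not depend on this length.

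Other genes of the pathway were read in 5 lists, 88 genes outside the 46, of which 87 were tested. Of these 4 passed as higher at E18 and 1 as lower, 5.75% beside 3.47% of all genes tested, and the median log2 fold change was −0.044. Among other fork and firing factors 0 of 29 passed in limma (3 of 29 at an unadjusted p under 0.05; 0 with voom). The helicase Recql4 was at 80.7 ± 10.4 and 54.5 ± 7.17 TPM, the nuclease-helicase Dna2 at 89.2 ± 1.30 and 65.6 ± 7.40 TPM and the fork protein Donson at 47.9 ± 4.10 and 69.9 ± 11.6 TPM (SD, n = 3; limma adjusted p = 0.0952, 0.0974 and 0.116). Among genes of replication-coupled chromatin 0 of 10 passed in limma (1 of 10 at an unadjusted p under 0.05; 0 with voom). The remodeller Hells was at 46.2 ± 2.48 and 35.6 ± 1.12 TPM, the histone mRNA binding protein Slbp at 95.6 ± 6.10 and 130.3 ± 32.9 TPM and the histone acetyltransferase Hat1 at 69.1 ± 11.3 and 54.9 ± 7.03 TPM (SD, n = 3; limma adjusted p = 0.135, 0.316 and 0.347).

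Of 25 G1/S regulators E2f2 and Rb1 passed as higher at E18, beside 3.47% of all genes tested that passed either way. E2f2, an activating E2F factor, was at 108, 111 and 141 TPM at E16 and at 311, 352 and 205 TPM at E18 (1.24 ± 0.23, log2 ± SE; limma adjusted p = 0.0392), lowest in replicate C among the E18 libraries. Rb1, which holds E2F factors in check, was at 45.6, 60.2 and 48.9 TPM and at 90.3, 86.4 and 77.6 TPM (0.71 ± 0.15; limma adjusted p = 0.0492), with no overlap, and opposite-strand exons cover 14.9% of it. Rb1 did not pass at pseudocount 0.1 or 5, at a minimum of 5 TPM or under median-of-ratios scaling. E2f2 did not pass with quantile normalization or with Gm26917, mitochondrial and small RNAs out of the total. Without the intensity trend neither passed. Ccnd3, a D-type cyclin, was at 47.3 ± 6.77 and 80.2 ± 11.2 TPM (SD, n = 3) and did not pass (limma adjusted p = 0.0551).

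Of 7 inhibitors of cyclin-dependent kinases 6 were tested, and 6 of 6 had positive log2 fold changes under each scaling tried. Of the 6, 2 passed as higher at E18, beside 3.47% of all genes tested that passed either way. Cdkn1c (p57), an imprinted inhibitor of G1 kinases, was at 14.2, 22.2 and 28.8 TPM at E16 and at 55.8, 66.5 and 53.3 TPM at E18 (1.44 ± 0.25, log2 ± SE; limma adjusted p = 0.0375), and opposite-strand exons cover 30.7% of it. Cdkn2d (p19), an inhibitor of Cdk4 and Cdk6, was at 3.91, 9.76 and 5.98 TPM and at 27.8, 20.8 and 20.8 TPM (1.74 ± 0.31; limma adjusted p = 0.0383). For both genes every E18 value was above every E16 value. Cdkn1a (p21) was at 1.77 ± 0.392 and 4.07 ± 1.83 TPM (SD, n = 3) and did not pass (limma adjusted p = 0.240), and Cdkn2a was listed at 0 in all 6 libraries.

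Of 17 other genes of nucleotide supply 1 passed as lower at E18, beside 3.47% of all genes tested that passed either way. Negative log2 fold changes were found for 13 (14 or 15 under the other scalings). Shmt1, a folate enzyme of thymidylate synthesis, was at 20.4, 27.0 and 22.3 TPM at E16 and at 9.63, 12.1 and 11.5 TPM at E18 (−1.01 ± 0.19, log2 ± SE; limma adjusted p = 0.0409), with no overlap. Cad, which starts pyrimidine synthesis, was at 246 ± 35.1 and 155 ± 47.8 TPM, and Gart of purine synthesis at 163 ± 32.3 and 104 ± 30.3 TPM (SD, n = 3), neither past the test (limma adjusted p = 0.146 and 0.187). Leaving out E16 replicate A, B or C or E18 replicate A or B ended all 5 calls, and without E18 replicate C 1 of 5 (E2f2) passed, with limma adjusted p from 0.0353 to 0.158 over these 6 fits. All 5 kept their sign in each of them. The erythroid, hepatocyte, mesenchymal, smooth muscle, mesothelial and endothelial sums given above differ between the days as well, the endothelial sum through Egfl7. The part of these sums in these 5 changes was not tested.

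**Figure D3:**
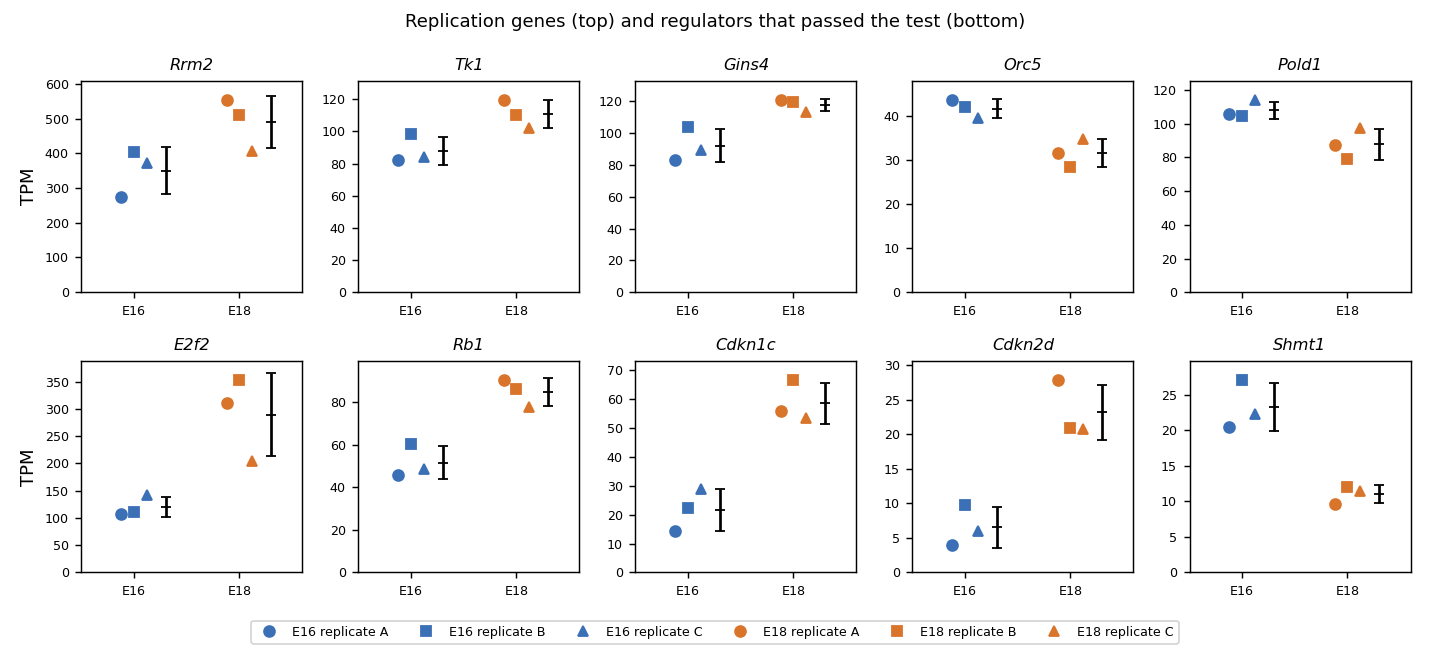
TPM in each library (points; blue E16, orange E18; shapes for replicates) with mean and SD of 3 libraries (black) for 5 replication genes whose days do not overlap (top row) and the 5 regulator or supply genes that passed the test (bottom row). Rrm2 in E18 replicate C (408 TPM) lies next to E16 replicate B (405 TPM), while E2f2 runs from 108 to 141 TPM at E16 and from 205 to 352 TPM at E18.

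Genes of mitosis, a later step of the same cycle, are set beside the 46 without a test of the difference. The 25 genes summed to 2327, 2730.1 and 2381 TPM at E16 and to 3138, 3080.2 and 2934 TPM at E18, so these days do not overlap. In limma 0 of 25 passed, and 8 of 25 had an unadjusted p under 0.05, beside 20.9% of all genes tested. With voom 0 passed, and 5 of 25 had an unadjusted p under 0.05, beside 21.3%. In the main fit 22 of 25 log2 fold changes were positive (15 to 20 under the other scalings). The days of 9 genes did not overlap, each higher at E18, beside 18.4% of all genes tested. The spindle protein Prc1 was at 54.9 ± 5.00 and 77.5 ± 9.71 TPM, the microtubule binder Nusap1 at 42.9 ± 12.3 and 68.6 ± 6.16 TPM and the ubiquitin enzyme Ube2c at 29.1 ± 4.58 and 40.7 ± 1.19 TPM (SD, n = 3; limma adjusted p = 0.105, 0.119 and 0.124). The ratio of summed replication genes to summed mitosis genes was 2.27, 2.54 and 2.68 at E16 and 2.17, 2.06 and 2.22 at E18. Their ratio to erythroid markers was 0.606, 0.659 and 0.679 at E16 and 0.293, 0.287 and 0.454 at E18, and to mesenchymal markers 12.1, 12.7 and 7.75 and 2.40, 1.04 and 2.75. To hepatocyte markers it ran the other way, 1.78, 0.703 and 2.62 at E16 and 16.3, 6.82 and 6.05 at E18. None of these 4 ratios overlapped between the days, while the summed TPM of the replication genes did.

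**Figure D4:**
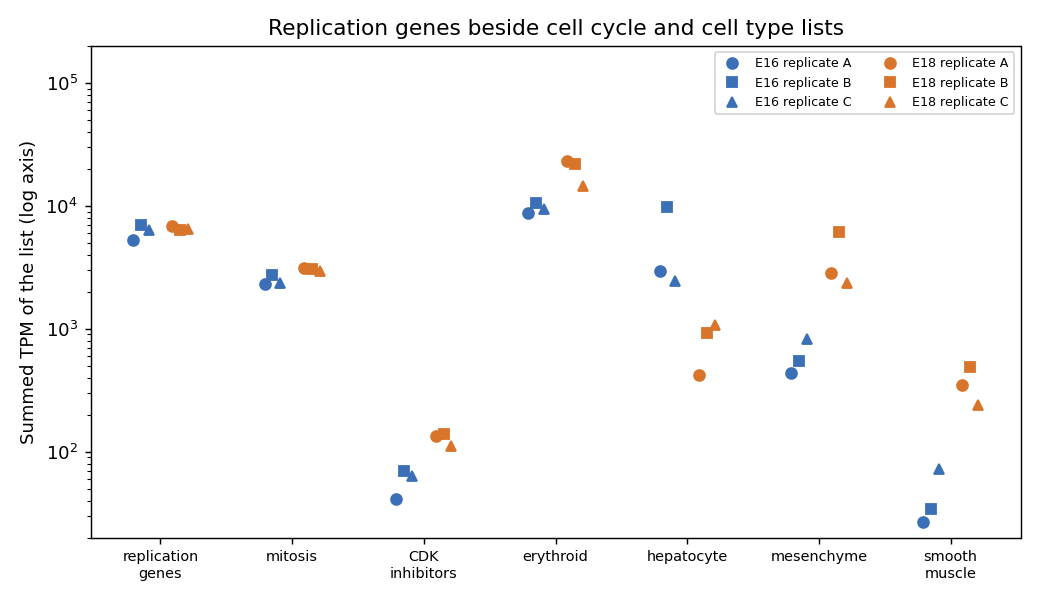
Summed TPM (log axis) of the 46 replication genes, of the mitosis and CDK inhibitor lists and of 4 cell type lists in each library (blue E16, orange E18; shapes for replicates). The replication genes run from 5282 to 6946 TPM with overlapping days, while the days of the other 6 lists drawn do not overlap. Among lists not drawn, the sums of other fork and firing factors, replication-coupled chromatin and other nucleotide supply overlap between the days too. So do those of megakaryocyte markers and of leukocyte and macrophage markers. The sums of G1/S regulators barely stand apart, with up to 2215.74 TPM at E16 and at least 2216.65 TPM at E18.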

How the data were processed

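The deposited values are TPM for 6 libraries, made by the authors. As labels, the submitters' processing notes list HISAT2 2.1.0, HTSeq 0.5.4p3, FastQC 0.11.7, Bowtie and mm10, with no roles. Annotation, TPM formula and strand setting are not given in sources used here. The kit was a stranded one for total RNA, per the labels' protocols. Symbols came from a table of Ensembl identifiers (54409 of 54532 matched), and positions and exon lengths from GENCODE M21 on GRCm38, the assembly of mm10.

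Multiplied by merged exon length, 96.8% to 97.1% of values above 0 per library came out as whole reads within 0.05 reads. Recovered totals were 21130197 to 22626885 reads at E16 and 14587544 to 18281942 at E18. These totals do not overlap between the days, and the part of read depth in the results was not tested. Chi-square per degree of freedom between replicates was 18.9 to 95.6, so no pair looks like repeat deposits.

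All 17824 genes with at least 1 TPM in at least 3 libraries were tested, E18 against E16. The test was limma 3.58.1 (R 4.3.3), 2-sided, with an intensity trend, on log2(TPM + 1), which understates changes of low genes; p-values were Benjamini-Hochberg adjusted over all genes tested. The steps were tested on simulated data. Members and lists were chosen with earlier results of these data known. All 46 members are named, and of each pathway list the 3 tested genes with the smallest p; Cdkn2a was added after its values were seen, as were Epor, Klf1, Gata1, Egfl7, Cdh5, Emcn, Cd68, Adgre1, Cd14 and Tagln. Of the listed genes 1, Ahsp, was unmatched. A planned search for a protein motif was not run. Alternatives varied pseudocount, filter, scaling, variance model and covariates, used the letter as a block, ran voom on recovered reads and left out each library. Added after seeing the data were voom without Gm26917, mitochondrial and small RNA genes, and all alternatives for the pathway genes. Figures were drawn with Matplotlib 3.10.9.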

Additional observations from a re-analysis of the deposited data

How the results depend on the processing

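The count of 0 replication genes called was the same under each alternative but array weights, where 7 passed (Cdc6, Gins3, Gins4, Rrm2 and Tk1 higher, Orc5 and Pold1 lower). The median log2 fold change of the 46, 0.067, moved to −0.025 with median-of-ratios scaling, −0.0010 with Gm26917, mitochondrial and small RNAs out of the total, −0.025 with voom on reads without those genes, −0.089 with the erythroid score as covariate and 0.22 with the hepatocyte score. It ran from −0.041 (without E16 replicate A) to 0.11 when each library was left out. The median of all genes moved from 0.075 to −0.082 with quantile normalization, where that of the 46 was 0.071. The 95% interval lay within 1 log2 unit for 13 of 46 genes with the erythroid score and for 19 with the hepatocyte score, and for 44 to 46 in the other fits. Of the 46 uncalled log2 fold changes 36 changed sign in at least 1 alternative. Over all genes, 618 calls became 347 at pseudocount 5, 406 at a minimum of 5 TPM, 399 with quantile normalization, 4316 with array weights, 1446 with voom, 1509 with voom without those genes, and 0 with no filter on low values, with the erythroid score, with the hepatocyte score and with the replicate block (4571, 569, 1679 and 3195 at an unadjusted p under 0.05). Leaving out each library gave 0 to 664. Of the calls 88.8% were higher at E18, 78.7% with quantile normalization, 77.9% with voom without those genes and 64.8% with array weights. The cause of these shifts was not tested. The labels do not say what a letter shares between the days. Deviations of equal letters correlated at 0.10, −0.14 and −0.12, and those of unequal letters at −0.15 to 0.22. With 3 libraries a day these values cannot settle whether the letters pair the libraries. With the replicate block 0 of 46 passed (smallest limma adjusted p = 0.304), as did 0 of the 5 pathway genes; these 5 also numbered 0 with no filter and with either score, and 2 to 5 in the other fits on all 6 libraries. Of the 46 genes Fen1 and Rpa3 had the lowest read numbers in a library, 113 and 118 recovered reads. The part of read number in the spread of the genes was not tested.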
